A study of Mus musculus with 2 samples.

Results

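The clustered protocadherins are cell-surface adhesion proteins of the cadherin superfamily, encoded by 3 neighbouring gene clusters called alpha, beta and gamma. They were taken here as the protein-coding GENCODE M21 genes whose symbol begins with Pcdha, Pcdhb, Pcdhga, Pcdhgb or Pcdhgc followed by a number, with Pcdhac1 and Pcdhac2 added. This rule found 57 genes among 21938 protein-coding nuclear genes and 55450 annotated genes: 14 in the alpha cluster, 22 in the beta cluster and 21 in the gamma cluster. Pcdhgb8 matched the symbol rule but is annotated as a polymorphic pseudogene and was left out. The symbol Pcdha11 belongs to a pair of gene identifiers, ENSMUSG00000007440.10 and ENSMUSG00000102206.5. The first of them is written Pcdha11* here, lies next to Pcdha9, and both were kept.

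Total RNA-seq was carried out on left cerebral cortex from male mice 18 to 20 months old of the B6CASTF1/J strain, the F1 cross of the inbred B6 and CAST strains. The study held 1 group of 2 libraries, replicates 1 and 2, each made from 300 ng of RNA with ERCC spike-in RNAs added, and no treated or younger animals. The labels give both libraries the same donor identifier and do not say whether the tissue came from separate animals, so the spread between them may be technical. With 2 libraries no test between conditions exists, and all comparisons below are between genes, between clusters or between the libraries.

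Each protocadherin of the alpha and gamma clusters is made from a variable exon of its own, which carries its own promoter and encodes the extracellular and membrane-spanning parts, spliced to constant exons that all genes of the cluster share and that encode the common end of the cytoplasmic tail. The beta genes have no constant exons. A neuron is known to choose a small set of the variable promoters, through the DNA-looping proteins CTCF and cohesin and through promoter methylation, and the resulting surface code lets the branches of a neuron recognise and avoid each other. The last genes of the alpha and gamma clusters, called C-type (Pcdhac1, Pcdhac2, Pcdhgc3, Pcdhgc4 and Pcdhgc5), are known to be regulated apart from the others and are made by many neurons at the same time.

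All 57 genes lie on the forward strand of chromosome 18 (GRCm38), the alpha cluster between positions 36930184 and 37187661, the beta cluster between 37264938 and 37524479 and the gamma cluster between 37661793 and 37841873. The longest-spliced transcript of an alpha gene has 4 to 6 exons, of a beta gene 1 or 2 and of a gamma gene 4 or 5. Of the exonic bases of a gene, the share at genome positions in no other protocadherin of the 3 clusters had a median of 46.6% in the alpha cluster, 55.4% in the gamma cluster and 100% in the beta cluster. Similar sequence at different positions was not counted as shared. Reads from the constant exons were divided among genes by estimate, so single alpha and gamma values carry an uncertainty of division. Cluster sums of levels per transcript length are not free of it. A read adds more to the level of a short transcript than to that of a long one. Some beta genes also had fractional expected counts, such as Pcdhb9 with 225.43 counts in replicate 1, so reads were divided there too. The counts were made on the reference genome, and any loss of reads from the CAST allele was not measured.

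The expected counts on annotated genes summed to 22812673 (replicate 1) and 29877145 (replicate 2), of which the 57 protocadherins held 24906 and 33124. Markers of neurons and astrocytes were present in both libraries. Summed neuronal markers (Rbfox3, Snap25, Syt1, Tubb3) reached 2326 and 2207 TPM (a level scaled to transcript length and to the library), and summed astrocyte markers 282 and 269 TPM. Markers of striatal projection neurons differed between the libraries, with all 4 (Drd1, Drd2, Adora2a, Ppp1r1b) higher in replicate 2 and a sum of 80.5 TPM in replicate 1 against 182 TPM in replicate 2. They were not the only markers to differ. The choroid plexus marker Ttr had 9.59 and 17.1 TPM, and the olfactory sensory neuron marker Omp 1.35 and 0.26 TPM. No other marker of these lists differed in the same direction beyond counting error. Not every marker list is reported here. In bulk tissue, fewer cells making a gene and less RNA of it per cell cannot be told apart.

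Detection, taken as at least 1 TPM in both libraries, was reached by 56 of the 57 genes, against 58.6% of all nuclear protein-coding genes. The exception was Pcdhb1, the first gene of the beta cluster, at 0.11 TPM (4 counts) in replicate 1 and 0.21 TPM (11 counts) in replicate 2. Its neighbour Pcdhb2 stood at 2.20 and 2.81 TPM. Pcdhb8 was the closest to the threshold among the detected genes, at 1.06 and 2.27 TPM.

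Although nearly all were detected, most of the genes were present at low levels. The median protocadherin had 4.05 ± 0.18 TPM (SD, n = 2), and the median detected protein-coding gene 16.2 TPM. The 57 genes summed to 391 TPM in replicate 1 and 371 TPM in replicate 2, which was 0.084% of the TPM of nuclear protein-coding genes. The gamma cluster held 65.6% ± 0.15 of that sum, the alpha cluster 17.1% ± 0.24 and the beta cluster 17.3% ± 0.39 (SD, n = 2 for each).

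**Figure D1:**
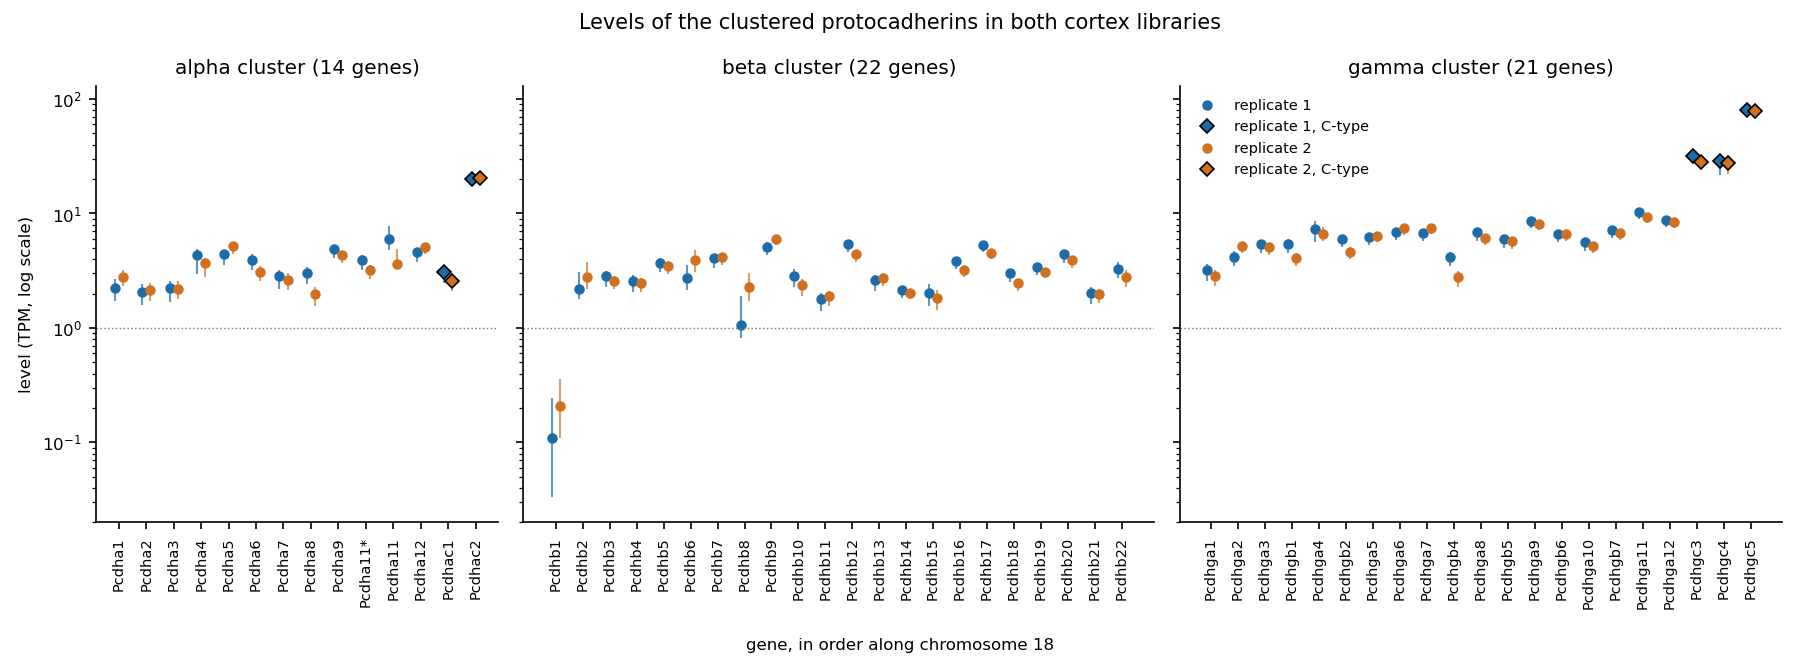
Level of each gene (TPM, log scale) in replicate 1 and replicate 2, in order along the chromosome within each cluster. Vertical lines are the deposited credibility intervals, diamonds are C-type genes and the dotted line marks 1 TPM. Pcdhb1 lies below the line in both libraries, and 4 of the 5 C-type genes lie above every A-type, B-type or other alpha gene of their cluster in this first quantification.

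The C-type genes, other than Pcdhac1, held the highest levels in the first quantification, an order that Pcdhgc4 did not keep in the second. Pcdhgc5 (ENSMUSG00000102543.5, chromosome 18, 37819513 to 37841873), whose protein is known to bind GABA-A receptors, had 80.3 TPM in replicate 1 and 78.5 TPM in replicate 2 and ranked in the 94.3rd percentile of nuclear protein-coding genes. Pcdhgc3 (ENSMUSG00000102918.1, 37806364 to 37841873), which is known to bind Axin1 and to promote dendrite branching, had 32.1 and 28.3 TPM. Pcdhgc4 (ENSMUSG00000023036.14, 37815079 to 37841873), required for the survival of cortical interneurons during development, had 29.0 and 27.6 TPM. Both lay well below Pcdhgc5 and could not be ordered between themselves, because their credibility intervals overlapped in both libraries.

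In the alpha cluster the C-type genes differed from each other. Pcdhac2 (ENSMUSG00000102697.1, 37143503 to 37187657), known for the even spacing of serotonergic axons, had 20.1 TPM in replicate 1 and 20.5 TPM in replicate 2. Pcdhac1 (ENSMUSG00000103255.1, 37090013 to 37187657), which needs a partner protocadherin to reach the cell surface, had 3.09 and 2.59 TPM. Pcdhac2 had an interval above those of all 12 other variable alpha genes in both libraries, whereas Pcdhac1 stood above none of them and below 4. The serotonergic markers Tph2, Slc6a4 and Fev summed to 0.21 and 0.24 TPM, with Slc6a4 and Fev at 0 in replicate 1, so markers of serotonergic cell bodies were near 0 in the tissue in which Pcdhac2 was measured.

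The C-type genes together held 42.2% ± 0.24 of the TPM of all 57 genes (SD, n = 2). Within the gamma cluster their share was 55.0% in replicate 1 and 55.3% in replicate 2, of which Pcdhgc5 alone gave 31.3% and 32.3%. Within the alpha cluster the share was 34.2% and 36.6%, nearly all of it from Pcdhac2 with 29.7% and 32.5%. The 5 genes thus made up a larger share of the gamma than of the alpha cluster in each library.

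The summed level of the gamma cluster was 257 TPM in replicate 1 and 243 TPM in replicate 2. The alpha cluster summed to 67.7 and 63.0 TPM and the beta cluster to 66.5 and 65.2 TPM. The gamma sum was 3.83 ± 0.045 times the alpha sum and 3.80 ± 0.094 times the beta sum (SD, n = 2). The alpha and beta sums were close in this first quantification, with a ratio of 0.99 ± 0.036 that was above 1 in replicate 1 and below 1 in replicate 2. Without the C-type genes the gamma sum remained 2.66 ± 0.090 times the alpha sum and 1.70 ± 0.049 times the beta sum, and the alpha sum was then 0.64 ± 0.040 of the beta sum. In the second quantification the full alpha sum was above the beta sum in both libraries, at 98.5 and 93.4 TPM against 85.9 and 90.2 TPM.

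**Figure D2:**
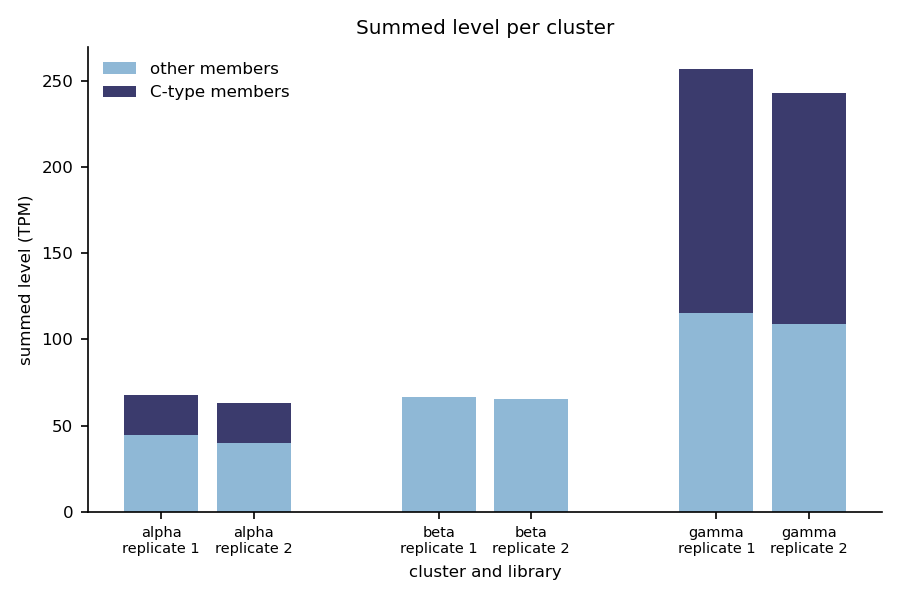
Summed level (TPM) of each cluster in each library, with the C-type genes stacked on the other genes. The gamma bars reach 257 and 243 TPM, and the alpha and beta bars lie between 63.0 and 67.7 TPM.

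The typical gene of each cluster followed a similar order. The median gene had 6.72 TPM in replicate 1 and 6.62 TPM in replicate 2 in the gamma cluster, 3.91 and 3.15 TPM in the alpha cluster, and 2.85 and 2.76 TPM in the beta cluster. The gamma median was above the beta median by 1.25 ± 0.02 on the log2 scale and above the alpha median by 0.93 ± 0.21 (SD, n = 2). The alpha median was above the beta median by 0.46 in replicate 1 and by 0.19 in replicate 2, a mean of 0.32 ± 0.19 that is not well separated from 0 at this spread.

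Single genes were then compared by their deposited credibility intervals, and a pair was called apart where the intervals were separate in each library and in the same order. The sources used here do not state the level of these intervals. Among all pairs of detected protein-coding genes 83.5% were apart. Leaving out the C-type genes, a gamma gene was above a beta gene in 310 of 396 pairs and below it in 4, and above an alpha gene in 147 of 216 pairs and below it in 4. An alpha gene was above a beta gene in 72 of 264 pairs and below it in 34, so 106 of those pairs were apart. Each comparison had a smaller share apart than all pairs. The shares were 79.3% for gamma and beta, 69.9% for gamma and alpha and 40.2% for alpha and beta. The beta genes here include the undetected Pcdhb1, whose intervals were below those of every alpha and gamma gene, whereas the 83.5% is from detected genes only.

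Within a cluster, most pairs could not be ordered. The intervals were apart in 26 of 66 pairs of alpha genes other than C-type, in 108 of 231 pairs of beta genes and in 67 of 153 pairs of gamma genes other than C-type, each a smaller share than the 83.5% of all pairs. The beta pairs again include Pcdhb1, whose intervals were below those of every other beta gene in both libraries. The levels spanned a small range: 2.32-fold between the lowest and the highest mean among the alpha genes without C-type, 3.28-fold among such gamma genes and 3.35-fold among the beta genes without Pcdhb1. Differences between genes were nevertheless wider than between libraries. On the log2 scale the SD between genes was 0.46, 0.50 and 0.44 for alpha, beta and gamma, and the SD between libraries of a gene was 0.22, 0.24 and 0.14.

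By the mean of both libraries in the first quantification, the highest alpha genes after Pcdhac2 were Pcdha12, with 4.63 TPM in replicate 1 and 5.11 TPM in replicate 2, and Pcdha5, with 4.41 and 5.16 TPM. Pcdha2 (2.07 and 2.13 TPM) and Pcdha3 (2.22 and 2.21 TPM) had the lowest means. Both low genes lay under both high genes in each library, but the order was not the same in each: Pcdha11 was higher than both in replicate 1 at 5.94 TPM, and Pcdha8 was the lowest in replicate 2 at 1.99 TPM.

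In the beta cluster Pcdhb9 was the highest, at 5.13 and 6.04 TPM, followed by Pcdhb17 at 5.35 and 4.54 TPM and Pcdhb12 at 5.44 and 4.41 TPM. Their order changed between the libraries. No beta gene reached 6.62 TPM, the lower of the gamma medians.

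In the gamma cluster the variable genes fall into A-type and B-type, grouped by sequence and interspersed along the chromosome. The median of the 12 A-type genes was 6.78 TPM in replicate 1 and 6.53 TPM in replicate 2, and that of the 6 B-type genes 5.97 and 5.18 TPM. The A-type genes were above in 22 of 72 pairs and below in 9, so the types overlapped widely. The highest gamma gene outside the C-type was Pcdhga11, at 10.4 and 9.30 TPM. The lowest were Pcdhga1, the first gene of the cluster, at 3.19 and 2.82 TPM, and Pcdhgb4, at 4.15 and 2.77 TPM.

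Level was set against the order of the genes along the chromosome, leaving out the C-type genes, which stand last. Among the 18 gamma genes Spearman's rho between order and TPM was 0.65 in replicate 1 and 0.64 in replicate 2, so genes nearer the constant exons tended to be higher. The first 9 of them had a median of 5.98 and 5.20 TPM and the last 9 a median of 6.84 and 6.62 TPM. Among the 12 alpha genes rho was 0.74 in replicate 1 and 0.41 in replicate 2. Among the 21 beta genes without Pcdhb1 it was 0.17 and -0.11, with no common direction. These correlations are descriptions across genes, which share their libraries and, in the alpha and gamma clusters, the reads of their constant exons.

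The deposited data hold a second quantification, made from the reads of 1 read file by a different method, which gives a check on how reads were divided. After centring on the median detected protein-coding gene, 3 of the 57 genes differed by more than 1.5-fold between the quantifications in both libraries, against 4.47% of detected protein-coding genes. Across all 57 genes the levels from both quantifications had a rank correlation of 0.96, with 0.97 in the beta cluster, 0.98 in the gamma cluster and 0.80 in the alpha cluster. No beta gene differed by that much in both libraries. The widest beta differences, on the log2 scale and as means over the libraries, were -0.47 for Pcdhb6, -0.42 for Pcdhb8 and -0.41 for Pcdhb1.

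Pcdhgc4 differed most. The second quantification gave it 12.05 and 11.1 TPM, where the first gave 29.0 and 27.6 TPM, a difference of -1.94 on the centred log2 scale. Its transcript Pcdhgc4-203 held 671 and 922 expected counts and 71.7% and 74.4% of the gene's TPM in the first quantification, and 0 counts in both libraries in the second. Of the 2272 bases of that transcript, 2119 lie in exons of other protocadherins and none is outside the other transcripts of Pcdhgc4. The other transcripts of Pcdhgc4 held 8.21 and 7.06 TPM in the first quantification. In the second quantification Pcdhgc4 lay below Pcdhga11 (14.5 and 13.6 TPM) and Pcdhga12 (13.6 and 13.8 TPM) in both libraries, so its place above all A-type and B-type genes was lost. The quantifications also differ in method and in the reads used, and the cause was not tested.

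The other genes that differed were in the alpha cluster. Pcdha4 had 4.37 and 3.69 TPM in the first quantification and 2.76 and 2.67 TPM in the second. Pcdha11 (ENSMUSG00000102206.5) had 5.94 and 3.60 TPM in the first and 15.8 and 9.83 TPM in the second. For Pcdha11, 96.8% and 87.7% of the expected counts lay on a pair of transcripts annotated as retained introns, so little of its signal was assigned to coding transcripts. Among the gamma genes the next widest differences were -0.33 for Pcdhga4 and -0.20 for Pcdhgb5, and among the alpha genes -0.33 for Pcdha1.

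**Figure D3:**
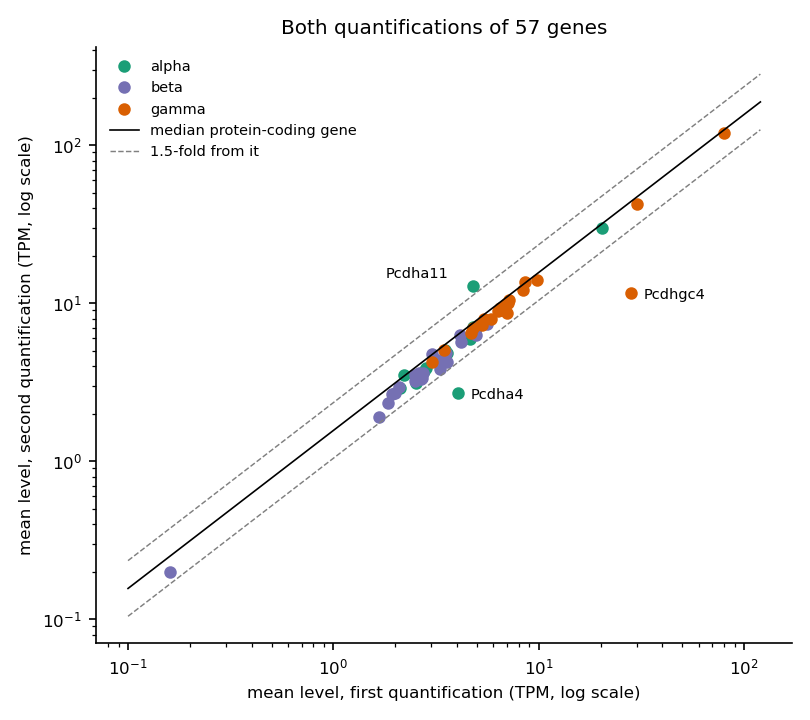
Mean level over both libraries in the first (x axis) and second (y axis) quantification, both in TPM on log scales, 1 point per gene. The solid line is the median detected protein-coding gene and the dashed lines are 1.5-fold from it. Pcdhgc4 and Pcdha4 lie below the band and Pcdha11 above it.

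The libraries were compared gene by gene with a log2 ratio of counts, replicate 2 over replicate 1, scaled by library size with edgeR's TMM factors. A gene was called where the exact binomial interval of the ratio, at 95% and for counting error only, excluded equality. Of the 56 genes with a mean of at least 10 counts, 12 were higher in replicate 2, against 24.3% of nuclear protein-coding genes, and 2 were lower, against 12.7%. By cluster these were 4 higher and 1 lower in alpha, 3 and 0 in beta, and 5 and 1 in gamma. The median log2 ratio was -0.01 in the alpha, 0.03 in the beta and 0.08 in the gamma cluster, beside 0.05 for all protein-coding genes. Of the 56 genes, 55 were within 0.5 of equality, all but Pcdhb8, as were 92.4% of protein-coding genes with at least 10 counts. Scaled by spike-in counts the protein-coding median moved to -0.07 and 6.73% of those genes were higher and 29.4% lower, while 6 protocadherins were higher and 12 lower, so the direction of the calls was not independent of the scaling.

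Pcdhb8 showed the widest difference, from 51.0 counts in replicate 1 to 116 in replicate 2, a log2 ratio of 0.83 (0.36 to 1.35). Pcdha1 rose from 161 to 280 counts, a log2 ratio of 0.45 (0.17 to 0.74), and Pcdhga2 from 285 to 494 counts, a log2 ratio of 0.45 (0.24 to 0.67). The genes that were lower were Pcdha8, with 237 and 215 counts and a log2 ratio of -0.48 (-0.76 to -0.21), and Pcdhgb4, with 247 and 245 counts and a log2 ratio of -0.36 (-0.62 to -0.09). Of the genes beside Pcdhgb4, Pcdhga7 was higher in replicate 2 (0.35) and Pcdhga8 had a ratio of -0.03. Of the genes beside Pcdhb8, Pcdhb9 was also higher (0.37) and Pcdhb7 had a ratio of 0.18. The part of the striatal markers, which were higher in replicate 2, in these differences was not tested.

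**Figure D4:**
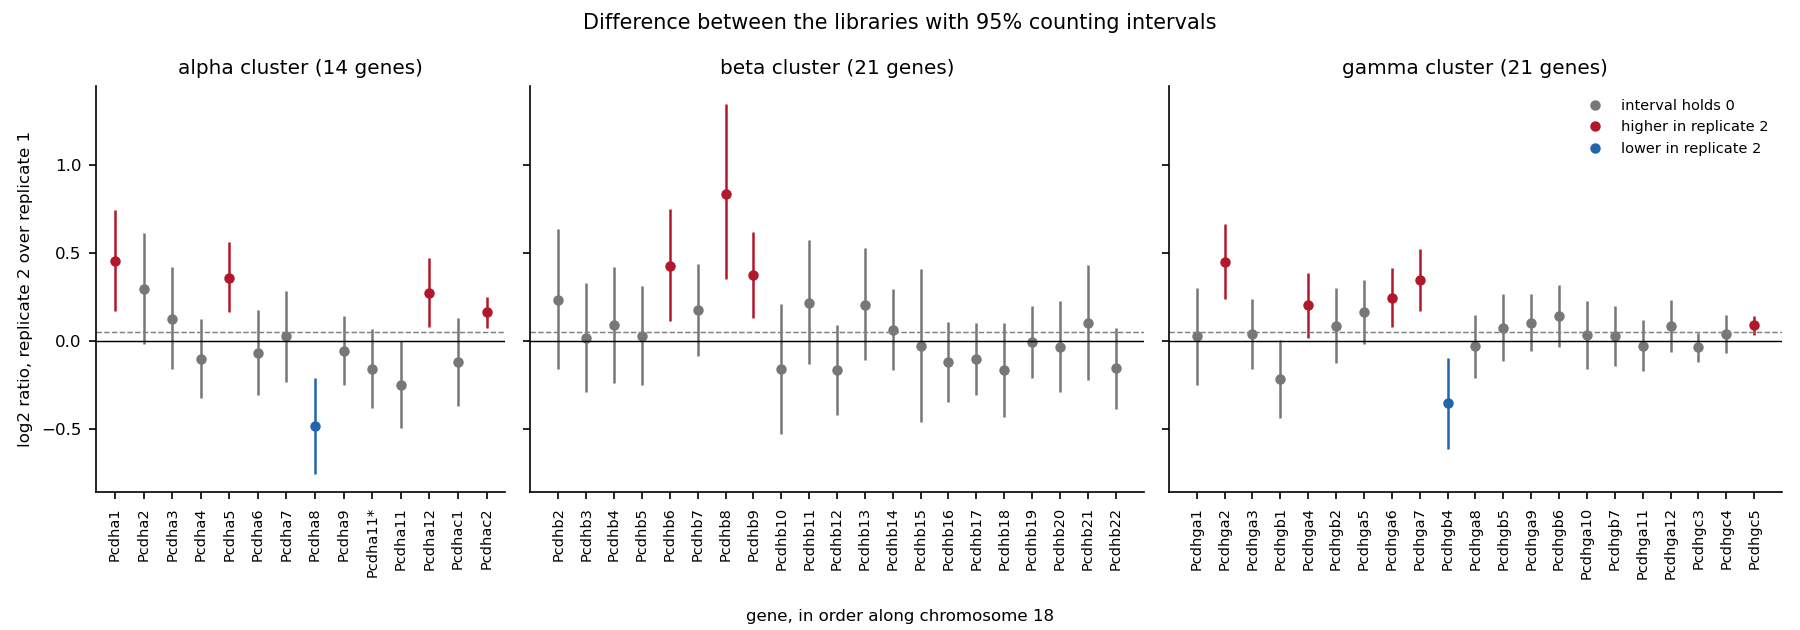
Log2 ratio of replicate 2 over replicate 1 for the 56 genes with at least 10 counts, with 95% counting intervals, in order along the chromosome. The dashed line is the median of protein-coding genes, 0.05. The intervals of 12 genes lie above 0 and those of Pcdha8 and Pcdhgb4 below it.

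The genes have 87 annotated transcripts, 36 genes having a single transcript, and 12 transcripts are annotated as retained introns or processed transcripts, which are annotated as noncoding. In 11 detected genes these held at least 10 counts on average. Their share of the gene's counts was lower in replicate 2 in all 11, which was also so for 81.2% of detected protein-coding genes with such transcripts. Over the 11 genes the share was 11.4% (exact 95% interval 10.82 to 12.005) in replicate 1 and 6.43% (6.04 to 6.84) in replicate 2. Over all such protein-coding genes it was 8.96% and 6.93%. The intervals cover counting error only and leave out the uncertainty of dividing reads among transcripts. In the second quantification the share over the 11 genes was 14.002% in replicate 1 and 9.113% in replicate 2, both above those intervals. By gene, the share in the second quantification was lower in replicate 2 in 9 of the 11, with Pcdha4 and Pcdha11 higher. This was also so for 5991 of 7600 protein-coding genes with such transcripts. The pattern was chosen after the values were seen.

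The widest of these differences in the first quantification were in Pcdhgb2, Pcdhgb4 and Pcdhgb1, the last with 49.8% in replicate 1 and 31.3% in replicate 2, but 64.9% and 63.0% in the second quantification. In Pcdhgb2 the retained-intron transcript held 39.7% of the counts in replicate 1 (125 counts) and 4.21% in replicate 2 (18.0 counts), while the coding transcript had 190 and 408 counts. In Pcdhgb4, the gamma gene called lower in replicate 2, the processed transcript had 127 and 60.9 counts and the coding transcript 119 and 184 counts. Before scaling for depth, the noncoding transcript was thus the lower and the coding transcript the higher in replicate 2. In the 3 gamma C-type genes the noncoding share was between 2.02% and 6.26% in both libraries of the first quantification.

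**Figure D5:**
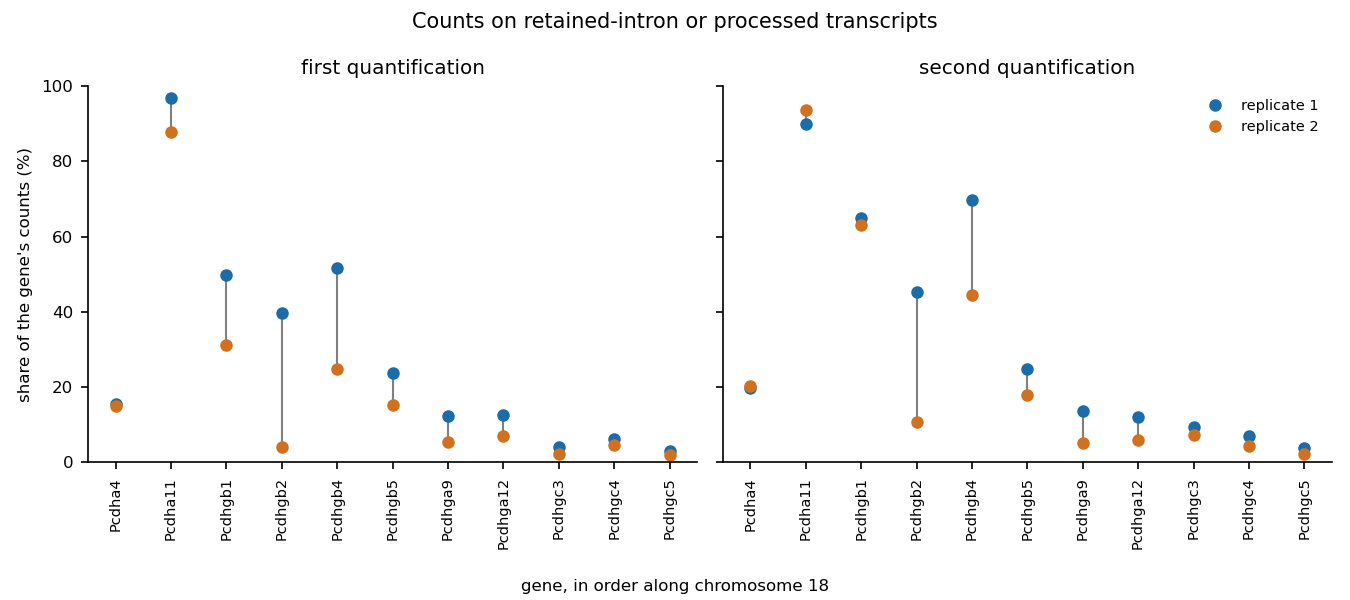
Share of the gene's counts (%) on retained-intron or processed transcripts in replicate 1 and replicate 2, for 11 genes, in the first (left) and second (right) quantification. In the first quantification all 11 genes have the lower share in replicate 2, and Pcdhgb2 drops from 39.7% to 4.21%.

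Genes that act with the clustered protocadherins were read from lists chosen with earlier results of these data known. Their counts stand beside 58.6% of protein-coding genes detected and, in replicate 2, 24.3% higher and 12.7% lower, or 6.73% higher and 29.4% lower with spike-in scaling. Of the 11 genes for CTCF and cohesin, which loop the variable promoters to their enhancers, 11 were detected, with a summed level of 297 ± 21.3 TPM (SD, n = 2) and with 1 higher and 1 lower in replicate 2, or 0 and 9 by spike-ins. The highest were Pds5a, a cohesin regulator, at 36.8 and 34.9 TPM, the cohesin subunit Rad21 at 34.7 and 34.6 TPM, and Pds5b at 34.7 and 31.5 TPM. Ctcf itself had 33.6 and 29.3 TPM.

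Of the 12 genes for promoter methylation and silencing 11 were detected, with 0 higher and 4 lower in replicate 2, or 0 and 9 by spike-ins. Among the highest were the DNA methyltransferase Dnmt3a (47.1 and 40.5 TPM) and Atf7ip, a partner of the histone methyltransferase Setdb1 (40.0 and 40.8 TPM). The gene not detected was Dnmt3b, the enzyme known to methylate protocadherin promoters during development, at 0.35 and 0.25 TPM. Smchd1, which silences protocadherin promoters, had 16.0 and 12.6 TPM.

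All 15 genes for cytoplasmic partners were detected, 9 higher and 0 lower in replicate 2, a direction that turned to 0 higher and 7 lower by spike-ins. The highest were Cyfip2 (290 and 281 TPM) and Nckap1 (177 and 177 TPM) of the WAVE actin-regulating complex, which binds protocadherin tails, and the tyrosine kinase Ptk2b (183 and 175 TPM), which alpha and gamma tails inhibit. All 6 genes for the shedding enzymes, which cut protocadherins at the membrane, were detected, with 3 higher and 0 lower, or 1 and 0 by spike-ins. Psenen had 32.0 and 40.6 TPM and Adam10 30.2 and 29.2 TPM.

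Related adhesion genes outside the clusters included some at higher levels. Of the 12 unclustered protocadherins 11 were detected, and their sum of 443 ± 40.2 TPM came from fewer genes than the 381 ± 14.01 TPM of the 57 clustered genes (SD, n = 2). Pcdh1 had 137 and 122 TPM, Pcdh9 96.5 and 71.0 TPM and Pcdh10 78.2 and 80.3 TPM, and only Pcdhgc5 of the clustered genes was in the range of these 3. Others of the list were as low as many clustered genes, such as Pcdh18 with 2.06 and 2.08 TPM. In this list 3 were higher and 3 lower in replicate 2, or 0 and 4 by spike-ins. Of 14 classical cadherins 13 were detected, led by Cdh2 (46.3 and 45.0 TPM), Cdh13 (31.9 and 30.1 TPM) and Cdh22 (22.5 and 23.7 TPM), with 7 higher and 2 lower, or 3 and 4 by spike-ins.

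The genes that flank or lie between the clusters ranged widely. Of 10 such neighbours 9 were detected, and the list summed to 248 ± 7.81 TPM. One of the detected, Vaultrc5, reached the threshold on only 1 and 5 counts (1.53 and 5.49 TPM). In replicate 2, 3 were higher and 1 lower, or 0 and 2 by spike-ins. These calls are among the 9 with a mean of at least 10 counts, which leave out Vaultrc5 and include the undetected Slc25a2. The highest were Rell2 (69.6 and 68.8 TPM), Zmat2 (59.3 and 58.1 TPM) and Hars (40.0 and 40.7 TPM). Between the beta and gamma clusters, Slc25a2 had 0.64 and 0.38 TPM and Taf7 had 3.11 TPM in both libraries.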

How the data were processed

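The total RNA-seq values used were those the authors deposited for 2 libraries. The expected counts, TPM, the percent of a gene's TPM per transcript, the posterior mean of TPM and its credibility bounds (a score, with no interval level stated) come from tables with the RSEM column layout, per the file headers. The estimated counts and TPM of the second quantification come from tables with the kallisto layout, per the file headers. The annotation was GENCODE M21 on GRCm38 (mm10), per the labels. The sources used here do not give aligner, tool versions, settings or use of strand.

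Second-quantification values were summed per gene. Expected counts were rounded for intervals. Ratios of replicate 2 over replicate 1 were log2((count + 0.5)/(count + 0.5)) less the log2 ratio of effective library sizes (0.34, TMM of edgeR 4.0.16 in R 4.3.3), with exact binomial (Clopper-Pearson) 95% intervals from scipy 1.17.1, for genes with a mean of at least 10 counts. PCR reads are not independent molecules, so intervals cover counting error only. No gene-wise model was fitted and no p-value is given: 2 libraries against 2 could not go below an exact p of 0.333, and there was 1 group. The interval calculation was run on simulated counts that held counting error only. That check does not cover other variation between libraries or the division of reads among genes. Alternatives were DESeq2 1.42.0 size factors, spike-in scaling, the second quantification, posterior mean TPM, other thresholds, and each library alone. Plots used Python 3.11.15 and matplotlib 3.10.9.

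The members and gene lists were chosen with earlier results of these data known. Values per library were given for the 3 highest and 2 lowest genes of each cluster, the C-type genes, the 3 largest called differences in each direction, the 3 genes per cluster whose quantifications differed most, and the 3 highest of each list, of which some values are not reported here. Other genes were named beside these after their values were seen. Sequences of these genes are not reported here.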

Additional observations from a re-analysis of the deposited data

Results flagged for a closer look

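Between the first alpha and the last gamma exon, over 912 kb, the annotation holds 28 features that are not among the 57 genes, and 12 of them, outside the list of neighbouring genes, had more than 3 counts in each library. Together these 12 features had 522 (replicate 1) and 519 (replicate 2) expected counts. The highest was Pcdhgb8, the polymorphic pseudogene of the gamma cluster, with a mean of 237 counts and 3.55 and 2.52 TPM, near the lowest gamma genes (Pcdhgb4 had 2.77 TPM in replicate 2). The alpha pseudogenes Gm36858 and Gm18150 had means of 66.8 and 16 counts, and the processed pseudogenes Gm19035, Gm20162 and Gm18529 had 37, 12 and 5.5 counts. The long noncoding RNA 3222401L13Rik had 41.5 counts. Transcripts annotated against the strand of the clusters were few: Gm26672 had 40 counts, Gm10545 26.6, BC037039 8 and Gm38225 7.09. Gm38182, a processed transcript on the strand of the gamma cluster, had 23.2 counts. Several of these overlap or resemble protocadherin genes, and the sources used here do not say whether counting used strand, so their reads may belong to those genes.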

How the results depend on the processing

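The number of detected genes per cluster stayed within 1.5 times under the second quantification and thresholds of 0.5 and 2 TPM. Levels moved with the quantification. Under the second, the summed TPM was 95.9 for alpha, 88.0 for beta and 333 for gamma, the medians were 4.42, 3.59 and 9.06, the gamma over beta log2 ratio of medians was 1.33 and the gamma C-type share 52.1%. Posterior mean TPM gave a beta sum of 64.3, a gamma median of 6.445 and a gamma over beta ratio of 1.23. Rescaled over nuclear protein-coding genes the sums were 144, 145 and 550.0. Gamma over beta was 1.34 from expected counts, which are not per length, and 1.18 without C-type genes. Ratios of means in place of medians were 1.35 for gamma over alpha, 1.99 for gamma over beta and 0.64 for alpha over beta. From expected counts the C-type share was 39.3% in alpha and 51.5% in gamma. The following, and the spike-in calls of the gene lists, were added after seeing the data: without C-type genes the sums were 42.2 for alpha and 112 for gamma, and without transcript Pcdhgc4-203 the gamma sum was 229 and its C-type share 51.1%. From a single library the alpha over beta ratio of medians was 0.19 without replicate 1 and 0.46 without replicate 2. The median log2 ratio between libraries turned with the scaling: -0.14, -0.096 and -0.049 for alpha, beta and gamma by spike-ins, -0.15, -0.10 and -0.094 from TPM, and 0.10, 0.11 and 0.12 in the second quantification. Spike-in scaling gave 2 alpha and 2 gamma genes higher and 3 alpha, 5 beta and 4 gamma genes lower. The second quantification gave 5 beta and 8 gamma genes higher and 2 alpha genes lower, and DESeq2 size factors gave 2 alpha genes lower. With DESeq2 size factors 23.97% of protein-coding genes were higher and 12.89% lower. No such share is given for the second quantification, so its counts of genes cannot be set against a background. The cause of these shifts was not tested, beyond what each alternative leaves out. Direction of every cluster ratio of medians held under each alternative. No paired analysis was possible because there is 1 group. Depth limits genes such as Pcdhb1 with 4 and 11 counts.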

Other observations

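The annotation lists 3 protein-coding genes that begin in the alpha cluster and end in the gamma cluster, Gm42416, Gm37013 and Gm37388. All had 0 expected counts in both libraries. The upper limit of 3 counts for a count of 0 covers counting error only, not the division of reads among genes. It is therefore no limit on the reads from these gene models. Whether reads from their exons were assigned to the protocadherin genes they span was not tested. No reads were assigned to these gene models at this depth.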
